A study of Rattus norvegicus with 6 samples.

Results

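Bone morphogenetic proteins (BMPs) are secreted signals that drive osteoblast differentiation, and the transcripts described here are 10 genes grouped under that pathway. They include the ligand gene Bmp4, the antagonist gene Nog, the receptor gene Bmpr1a and the Id genes Id1, Id2, Id3 and Id4. The others are the inhibitory Smad genes Smad6 and Smad7 and the matrix gene Tgfbi, which is induced by TGF-beta. Members were the probe sets whose platform annotation gives exactly 1 gene symbol equal to one of these names. All 10 genes were found, as 19 probe sets, among 14217 genes with such a probe set. They were measured in UMR106-01, a rat osteosarcoma line with osteoblast properties, on 1 Affymetrix array per culture. The 3 mineralizing cultures and the 3 AEBSF cultures all grew in 10% fetal bovine serum and were re-fed at 64 h with 6.5 mM beta-glycerol phosphate, a source of phosphate for mineral. The AEBSF cultures also received 400 µM AEBSF, an irreversible serine protease inhibitor, and RNA was taken from all 6 at 76 h. A single tumour line grown in dishes stands in for osteoblasts here, and no culture without beta-glycerol phosphate is part of the comparison.

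In this pathway a BMP dimer binds type I and type II receptor kinases at the cell surface, and the type I receptor phosphorylates Smad1, Smad5 and Smad9, which enter the nucleus with Smad4. Noggin binds the ligand outside the cell and keeps it from the receptors. Id genes are direct targets of these Smads, and Id proteins pair with basic helix-loop-helix factors that they hold off DNA because they have no DNA-binding region themselves. Smad6 and Smad7 are also induced by the pathway and inhibit it from inside the cell.

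Signals of the ligand and its antagonist were lower with AEBSF, while those of several intracellular targets were higher. Bmp4 fell 1.38-fold and Nog fell 1.24-fold, Id1 and Id2 rose 1.35-fold each, Id3 rose 1.16-fold and Smad7 rose 1.55-fold. Tgfbi fell 1.72-fold. The signals of Bmpr1a, Id4 and Smad6 did not pass the test. Of the 10 members, each represented by its brightest probe set, 4 rose and 3 fell at a limma adjusted p of 0.05, and 3 did not pass. Over the 9864 genes tested, 16.3% passed, 7.09% higher and 9.22% lower. Counted by probe set, 8 of 15 tested member probe sets passed, against 13.4% of the 18625 tested. The median log2 fold change was 0.211 for the 10 members and 0.00245 for all tested genes. The members had been proposed with results of these arrays known, so these counts describe them and are not a test of the pathway.

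**Figure D1:**
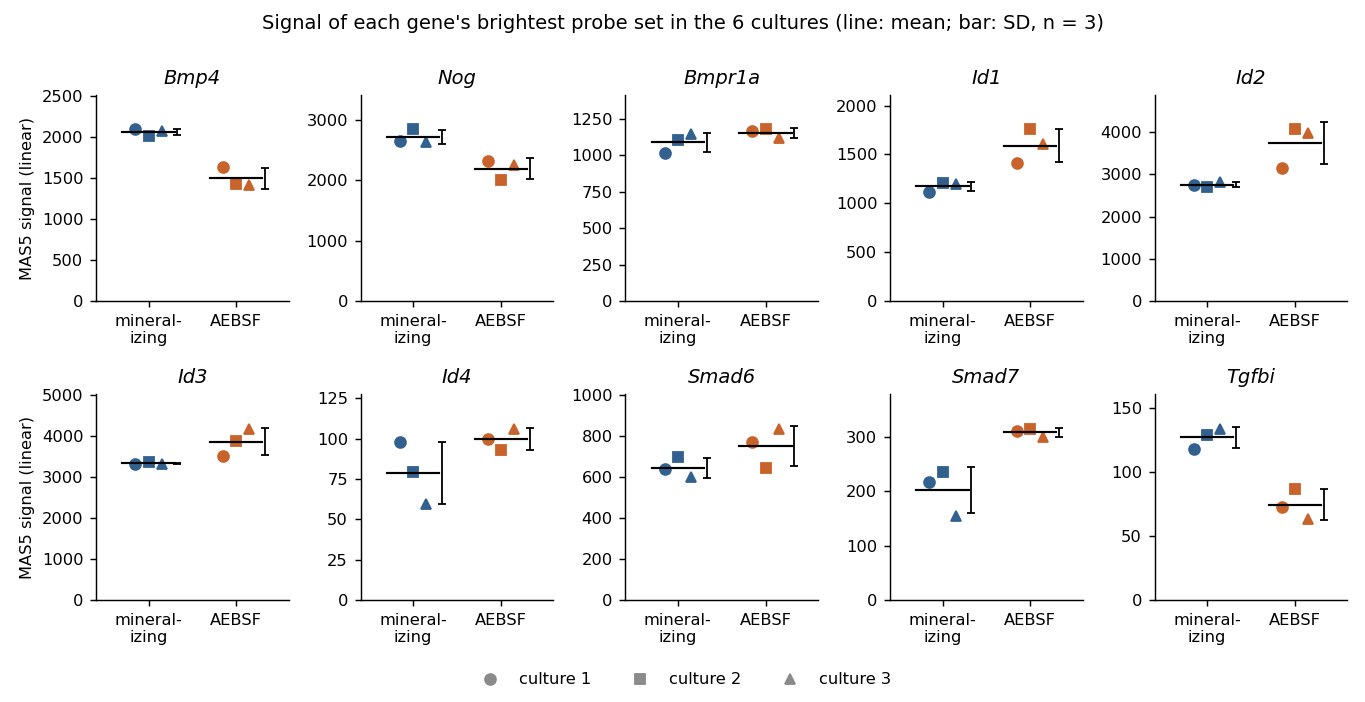
MAS5 signal (vertical axis, linear, starting at 0) of the brightest probe set of each of the 10 genes in the 3 mineralizing (blue) and 3 AEBSF (orange) cultures, with a symbol for each culture, a line at the mean and a bar of 1 SD. Bmp4, Nog and Tgfbi lie lower in all 3 AEBSF cultures, Id1, Id2, Id3 and Smad7 lie higher in all 3, and the groups of Bmpr1a, Id4 and Smad6 overlap.

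The DNA just upstream of 4 of these genes is given so that the Id genes, which rose, can be set beside Nog, which fell. The sequences are RefSeq's for assembly GRCr8, read 5′ to 3′ on the strand of the gene, and hold only bases outside every annotated transcript of that gene. They are Id1 at chr3:161671314-161671524 (plus strand), Id2 at chr6:47470996-47471245 (minus strand), Id3 at chr5:153656041-153656252 (plus strand) and Nog at chr10:74627502-74627751 (minus strand). Capitals mark matches to 4 motifs. GGCGCC is a GC-rich motif known to be bound by Smads of the BMP branch. The short Smad motif reads CAGAC on either strand. The box known to be bound by NF-Y reads CCAAT, and the core of the TATA box is given by the letters TATAA on the strand of the gene.
Id1: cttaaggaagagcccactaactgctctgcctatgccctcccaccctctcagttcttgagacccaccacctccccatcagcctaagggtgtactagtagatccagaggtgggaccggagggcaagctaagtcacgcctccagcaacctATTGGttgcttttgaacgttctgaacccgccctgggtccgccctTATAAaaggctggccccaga
Id2: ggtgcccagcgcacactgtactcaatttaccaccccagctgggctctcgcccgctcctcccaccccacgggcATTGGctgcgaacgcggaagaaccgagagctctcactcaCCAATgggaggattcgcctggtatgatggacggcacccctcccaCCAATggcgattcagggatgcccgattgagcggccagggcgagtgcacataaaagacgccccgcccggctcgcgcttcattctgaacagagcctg
Id3: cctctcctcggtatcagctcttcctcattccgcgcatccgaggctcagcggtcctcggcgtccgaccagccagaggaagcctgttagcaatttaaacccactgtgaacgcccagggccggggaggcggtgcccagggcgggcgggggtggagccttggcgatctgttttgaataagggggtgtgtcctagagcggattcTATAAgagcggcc
Nog: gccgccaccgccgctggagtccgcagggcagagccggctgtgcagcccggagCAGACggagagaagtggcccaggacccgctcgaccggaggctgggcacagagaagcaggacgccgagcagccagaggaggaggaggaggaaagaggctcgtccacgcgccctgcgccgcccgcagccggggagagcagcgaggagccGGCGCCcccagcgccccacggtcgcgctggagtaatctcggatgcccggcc

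The first 3 motifs were searched on both strands and the TATA core on the strand of the gene alone. The window was the 250 bases before the start position used for each gene, and distances are counted from that position. For Id1 and Id3 the window ends inside an annotated transcript, so their printed sequences stop 40 and 39 bases upstream. No match overlapped another in the members' windows. Of 33469 promoters, 8.69% held the GC-rich Smad motif, 42.9% the short Smad motif, 34.0% the NF-Y box and 16.7% the TATA core. Of the 9 members with a promoter in the table, all but Smad6, the GC-rich motif stood in 3 (Nog, Smad7 with 2 matches, and Tgfbi) and the short Smad motif in 2 (Bmp4 with 2 matches, and Nog). None of the windows of Id1, Id2, Id3 and Id4 held either of these Smad motifs. The windows of Nog, Smad7 and Tgfbi were 74.0%, 78.0% and 65.6% G or C. Those of the other members ranged from 28.4% (Bmpr1a) to 66.4% (Bmp4). The shares of all promoters were not matched for this content. Bases farther upstream and variants of the motifs were not searched. Id1 held 1 NF-Y box, in the reverse orientation 103 to 99 bases upstream, and a TATA core 59 to 55 bases upstream. Id2 held 3 NF-Y boxes, and Id3 a TATA core 51 to 47 bases upstream. Over the 9 members the NF-Y box stood in 2 (Id1 and Id2) and the TATA core in 3 (Id1, Id3 and Bmpr1a, there 231 to 227 bases upstream). The NF-Y and TATA motifs were added after the Id sequences had been read, and these matches describe letters, not binding.

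Bmp4, the ligand, had signals of 2094, 2017 and 2070 in mineralizing cultures 1, 2 and 3 and of 1638, 1428 and 1422 in AEBSF cultures 1, 2 and 3. The lowest mineralizing value lay 379 above the highest AEBSF value, so the groups did not overlap. The means were 2060 ± 39.2 and 1496 ± 123 (SD, n = 3 cultures each), a log2 fold change of -0.46 (SE 0.07, 95% interval -0.61 to -0.32, limma adjusted p = 0.00131). In all 17 alternative settings tried, the change kept its sign and its adjusted p stayed at 0.0326 or below. Bmp4 has 1 probe set with exactly 1 symbol, so no second probe set checks this value.

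Nog encodes noggin, whose own gene is known to be induced by BMPs in osteoblasts. Its signals were 2658, 2845 and 2642 in the mineralizing cultures and 2326, 2004 and 2256 with AEBSF. Every AEBSF value was below every mineralizing value, with a gap of 317. The means of 2715 ± 113 and 2196 ± 169 gave a log2 fold change of -0.31 (SE 0.07, 95% interval -0.45 to -0.16, limma adjusted p = 0.0117). The call was lost without mineralizing culture 2, the highest of the 6 (limma adjusted p = 0.0574), and where all probe sets shared a constant variance prior (0.0849). Of the 3 AEBSF cultures, culture 1 had the highest signal of both Nog and Bmp4.

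Bmpr1a encodes the type I receptor ALK3, through which Bmp4 signals. It stood at 1014, 1106 and 1143 in the mineralizing cultures and at 1163, 1177 and 1115 with AEBSF. The groups overlapped, and the log2 fold change of 0.08 had a 95% interval from -0.07 to 0.23 (limma adjusted p = 0.462). The interval excludes a change of the size seen for Bmp4 or Id1, in either direction. When arrays were scaled to their hybridization controls, the value was -0.06.

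Id1, the Id gene most used as a readout of BMP signalling, had signals of 1121, 1210 and 1196 in the mineralizing cultures. With AEBSF the signals were 1416, 1756 and 1602. All 3 AEBSF cultures lay above the mineralizing ones, AEBSF culture 1 by the least. The means were 1176 ± 47.8 and 1592 ± 170 (log2 fold change 0.43 with SE 0.08, 95% interval 0.26 to 0.61, limma adjusted p = 0.00524). The SD with AEBSF was thus larger than in the mineralizing group, and the difference between means exceeded both.

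Id2 is read by 2 probe sets, and both rose. The brighter one gave 2748, 2704 and 2824 in the mineralizing cultures and 3162, 4066 and 3989 with AEBSF. In the mineralizing group the 3 values lay close together, and with AEBSF culture 1 stood apart from cultures 2 and 3 on the low side. The log2 fold change was 0.43 (SE 0.08, limma adjusted p = 0.0071). The dimmer probe set gave 438, 450 and 421 against 633, 623 and 562, a log2 fold change of 0.47 (SE 0.09, limma adjusted p = 0.0054). In this probe set culture 3 was the lowest of the AEBSF cultures and culture 1 the highest, so the order of the AEBSF cultures differed between the probe sets while their direction and size were alike.

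Id3, whose product pairs with many of the partners of Id1, changed the least of the called members. Its signals were 3321, 3358 and 3321 in the mineralizing cultures and 3525, 3879 and 4182 with AEBSF. The mineralizing SD of 21.4 was small beside the AEBSF SD of 329, and the groups lay 167 apart. The log2 fold change was 0.21 (SE 0.06, 95% interval 0.07 to 0.35), with limma adjusted p = 0.0496. This call was just inside the threshold and was lost in 11 of 17 alternative settings, among them those that left out mineralizing culture 1, 2 or 3 (limma adjusted p = 0.129, 0.12 and 0.109) and AEBSF culture 2 or 3 (0.099 and 0.133). With AEBSF culture 1 left out the limma adjusted p was 0.019.

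Id4 was read by 4 probe sets, of which only the brightest lay above the signal filter. That probe set gave 97.7, 79.4 and 59.5 in the mineralizing cultures and 99.8, 92.6 and 106 with AEBSF, overlapping groups (log2 fold change 0.36 with SE 0.24, limma adjusted p = 0.345). Its 95% interval, from -0.15 to 0.88, spans both no change and a rise larger than that of Id1. Without mineralizing culture 3, the lowest of the 6, the value was 0.17, and without mineralizing culture 1 it was 0.53. The other 3 Id4 probe sets had mean signals of 12.1 to 28.8 in either group, below the filter at a signal of 67.2, and were not tested. Their log2 differences, -0.35, 0.06 and 0.71, did not share a sign. Of the 4 Id genes, 3 rose and 0 fell, where 7.09% of all genes were called higher, and 0 of the 4 passed under the hybridization scaling or a constant variance prior.

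Smad7 encodes an inhibitory Smad that acts on both the BMP and the TGF-beta receptors. Its brightest probe set gave 216, 235 and 155 in the mineralizing cultures and 310, 315 and 299 with AEBSF. Here the mineralizing cultures varied more, with culture 3 the lowest, and the AEBSF cultures lay close together. The means of 202 ± 41.8 and 308 ± 8.29 gave a log2 fold change of 0.63 (SE 0.16, 95% interval 0.29 to 0.97, limma adjusted p = 0.0225). Leaving out mineralizing culture 3, AEBSF culture 1 or AEBSF culture 2 ended the call (limma adjusted p = 0.0595, 0.0628 and 0.0564), as did averaging the 3 probe sets (log2 fold change 0.40, limma adjusted p = 0.154). The other 2 Smad7 probe sets, with mean signals of 72.3 to 105, had log2 fold changes of 0.42 and 0.14 and did not pass (limma adjusted p = 0.268 and 0.738).

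Smad6 encodes the inhibitory Smad that acts mainly on BMP receptors. Its 2 bright probe sets had nearly equal log2 fold changes of 0.21 and 0.22 (SE 0.10 and 0.09), and neither passed (limma adjusted p = 0.199 and 0.13). The brightest gave 642, 699 and 601 in the mineralizing cultures and 775, 645 and 838 with AEBSF, where AEBSF culture 2 lay among the mineralizing values. The second gave 690, 639 and 584 against 796, 757 and 679, where the lowest AEBSF value lay just under the highest mineralizing one. Of the remaining 2 probe sets, 1 was tested and did not pass (log2 fold change 0.37, limma adjusted p = 0.332) and 1 lay below the filter.

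**Figure D2:**
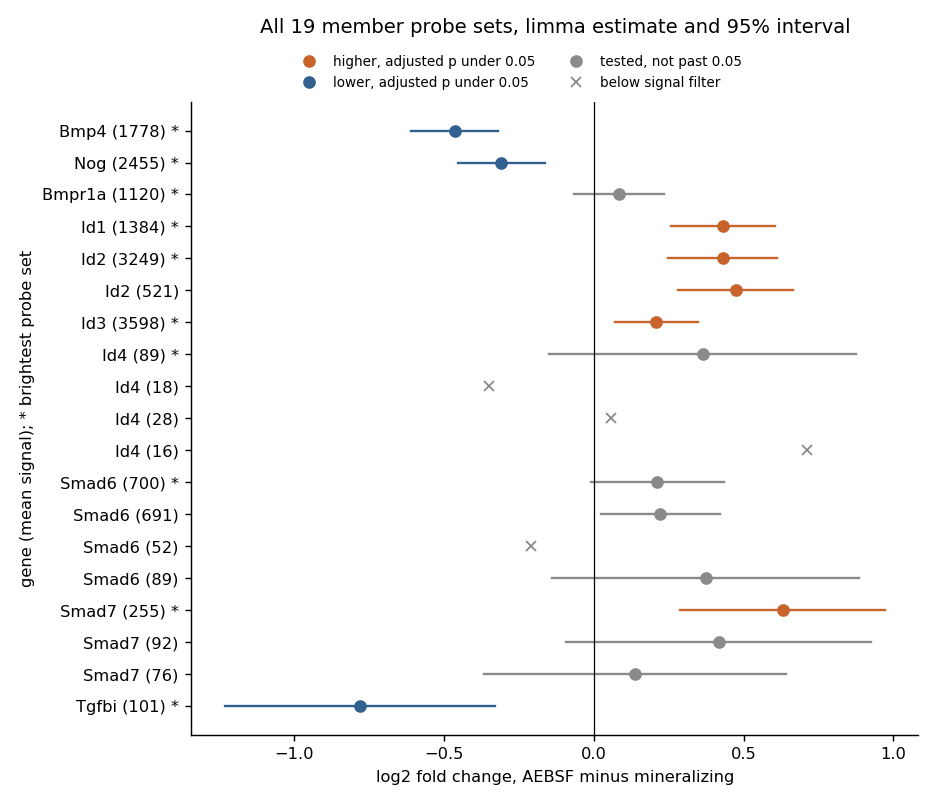
Log2 fold change (horizontal axis, AEBSF minus mineralizing) of all 19 member probe sets, with the limma 95% interval for the 15 tested and a cross for the 4 below the signal filter; the mean signal stands in brackets after each name. The 8 coloured probe sets passed an adjusted p of 0.05, the 2 probe sets of Id2 lie together, and the dim probe sets of Id4, Smad6 and Smad7 have wide intervals.

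Tgfbi encodes a secreted matrix protein induced by TGF-beta that binds collagens and integrins. It gave 118, 129 and 134 in the mineralizing cultures and 72.9, 86.9 and 63.1 with AEBSF. All AEBSF values were below all mineralizing values, and both means, 127 ± 8.11 and 74.3 ± 12.0, were above the signal at the filter. The fall was the largest among the members (log2 fold change -0.78 with SE 0.21, 95% interval -1.23 to -0.33, limma adjusted p = 0.0288), and its interval was also among the widest. With 64 added to each signal before the logarithm it was -0.47. Leaving out any single mineralizing culture ended the call (limma adjusted p = 0.0706, 0.0906 and 0.0917 without culture 1, 2 and 3), as did leaving out AEBSF culture 1 or 3 (0.0643 and 0.0697) and dropping the signal filter (0.0755).

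Of the 10 members, the 7 called had groups that did not overlap, as did 36.1% of all tested genes. The lack of overlap rests on the same values as the calls and is no further check of such a member. For such a member the two-sided exact permutation test over the 6 arrays gave p = 0.1, the smallest that 3 against 3 allows. In 5 of the 7 (Bmp4, Nog, Id1, Id2 and Id3) AEBSF culture 1 was the AEBSF culture closest to the mineralizing mean. Among all 1608 called genes this held for 516 (32.1%). Id2 counts here by its brighter probe set, while in its dimmer one AEBSF culture 3 was the closest. For Smad7 the closest was culture 3 and for Tgfbi culture 2.

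The deposited values are scaled so that every array has the same trimmed mean, so a rise is a rise relative to the other genes. The hybridization controls (bioB, bioC, bioD and cre) are RNAs added in known amounts at the hybridization step. Their mean log2 signal was 10.8165 to 10.9993 in the mineralizing and 10.9954 to 11.1527 in the AEBSF cultures. These ranges overlap. Controls added at that step do not measure RNA per culture, and whether RNA per culture differed was not tested. When these controls set the scale instead, the median over all genes moved from 0.00245 to -0.144 in log2 fold change. The split of called genes moved from 699 higher and 909 lower to 61 higher and 1535 lower. In that scaling Bmp4, Nog and Tgfbi still fell, by 0.61, 0.46 and 0.93 on the log2 scale. No member rise passed there: Id1 and Id2 stood at 0.29 and 0.28 (limma adjusted p = 0.067 and 0.0534), Id3 at 0.06 and Smad7 at 0.48 (0.708 and 0.0597). Since this scaling shifts every gene by the same amount, the distance of each member from the median of all genes is unaltered by construction and is no further check. Quantile normalization and centring on the array median gave each called member the same direction. All 7 passed after quantile normalization, and 6 after centring, where Id3 did not (limma adjusted p = 0.0854).

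**Figure D3:**
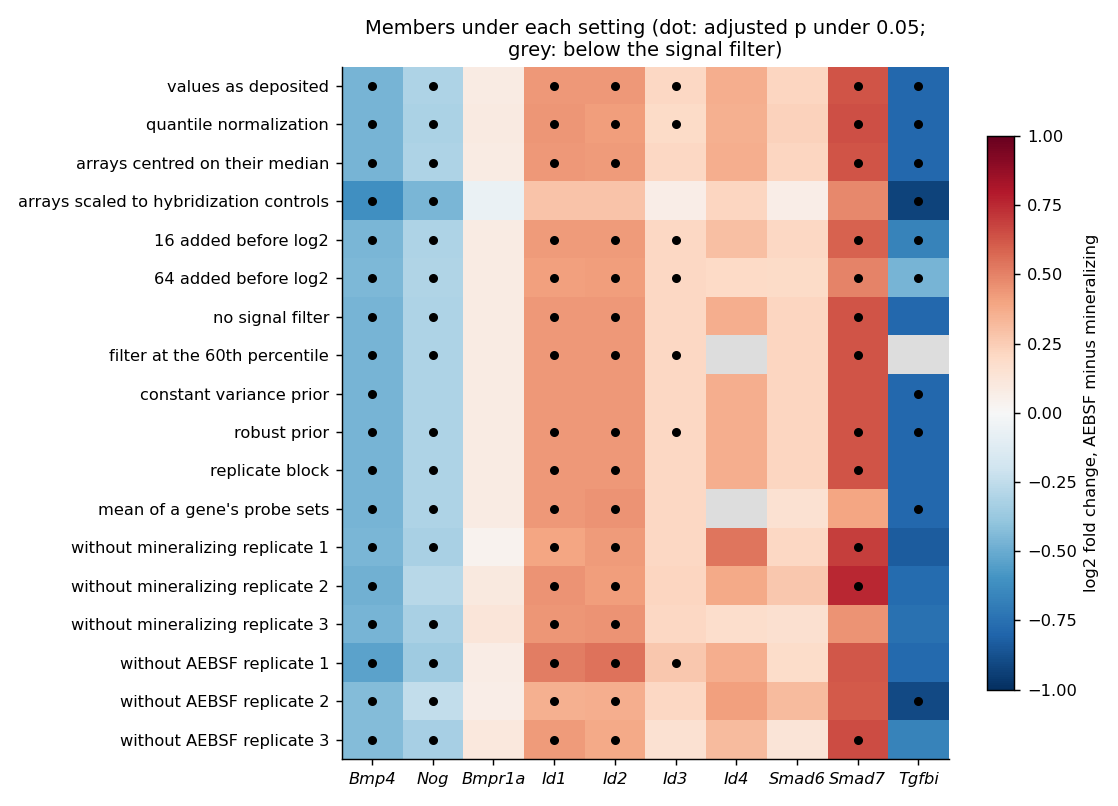
Log2 fold change (colour, AEBSF minus mineralizing) of the 10 genes (columns) in the values as deposited and under 17 alternative settings (rows); a dot marks an adjusted p under 0.05 and grey a gene below that setting's signal filter. Bmp4 has a dot in every row, Id1 and Id2 lack one in 2 rows each, and Id3 lacks one in 11.

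Outside the members, ligand, antagonist and target genes of the pathway held single changes, and the TGF-beta branch held several. Of 89 further genes listed by role, 61 were tested: 2 rose, 6 fell and 53 did not pass, a share of 13.1% called against 16.3% of all genes. The list's median log2 fold change was -0.0888. After quantile normalization 8 passed as well, 4 in each direction. Leaving out mineralizing culture 1, 2 or 3 gave 3, 4 and 4 calls, a variance prior that did not follow the signal gave 3, and scaling to the hybridization controls gave 15, all of them lower.

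Among 6 other ligand genes tested, Bmp7 rose and 0 fell, opposite to Bmp4. Bmp7, a ligand that signals mainly through the receptor ALK2, gave 2020, 2067 and 1996 in the mineralizing cultures and 2804, 2802 and 2406 with AEBSF (log2 fold change 0.39 with SE 0.07, limma adjusted p = 0.00345). The groups lay apart, with AEBSF culture 3 the closest to the mineralizing values. Under the hybridization scaling its rise did not pass (log2 fold change 0.25, limma adjusted p = 0.102). Bmp2 lay on the same side as Bmp4, with a log2 fold change of -0.25, and did not pass (limma adjusted p = 0.223). Gdf11 and Bmp6 lay on the side of Bmp7, at 0.21 and 0.27, and did not pass (limma adjusted p = 0.0722 and 0.35). Of the 6 ligand genes, 3 lay above 0 and 3 below.

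Of 5 other antagonists or modulators tested, Fstl1, a secreted follistatin-like glycoprotein, fell (log2 fold change -0.22 with SE 0.06, limma adjusted p = 0.0401) and 0 rose. Another Fstl1 probe set fell by 0.26 and the remaining one stood at -0.03 (limma adjusted p = 0.0339 and 0.907), and the call was lost in 11 of 17 alternative settings. Under the hybridization scaling Fstl1 stood at -0.37. Chrd, Grem1 and Fst, which encode other BMP or activin traps, were among 6 genes below the signal filter. In limma at an adjusted p of 0.05, 0 of 8 receptor or co-receptor genes and 0 of 12 Smad or Smad regulator genes passed. In each role 3 genes had an unadjusted p under 0.05, as had 3142 of all 9864 genes tested. The brightest receptor or co-receptor gene was Bambi, a decoy receptor, at 2448 ± 57.5 and 2208 ± 17.5 (limma adjusted p = 0.0829), and the brightest gene of the Smad role was Skil, a repressor of Smads, at 4998 ± 110 and 5012 ± 312 (0.983).

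Among 8 other target genes tested, Atoh8, a basic helix-loop-helix factor induced by BMP receptors, rose and 0 fell. Its signals were 530, 500 and 525 in the mineralizing cultures and 599, 731 and 676 with AEBSF (log2 fold change 0.36 with SE 0.09, limma adjusted p = 0.0235). As for Id1, AEBSF culture 1 was the lowest of its group and lay above all mineralizing cultures. The call was lost in 7 of 17 alternative settings, with limma adjusted p between 0.0505 and 0.275, the latter under the hybridization scaling (log2 fold change 0.22). Msx1 and Hey1, which encode a homeobox factor and a Notch and BMP target, stood at 0.30 and 0.26 on the log2 scale and just missed the threshold (limma adjusted p = 0.0529 and 0.0576). Samd11 lay on the other side, at -0.27, and did not pass either (limma adjusted p = 0.0898). Over the 8 target genes the median log2 fold change was -0.00397, with 4 genes above 0 and 4 below. Dlx3 and Dlx5, homeobox genes of osteoblast differentiation, stood at 0.14 and -0.19 and did not pass (0.292 and 0.143).

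Of 8 genes for factors that Id proteins can bind or that resemble these, Ets2, an ETS factor, fell (log2 fold change -0.22 with SE 0.06, limma adjusted p = 0.0419) and 0 rose. The E protein genes Tcf3, Tcf4 and Tcf12, the main partners of Id proteins, stood at 0.24, -0.08 and -0.11 on the log2 scale and did not pass (limma adjusted p = 0.323, 0.352 and 0.334). The Ets2 call was lost in 10 of 17 alternative settings, and under the hybridization scaling Ets2 stood at -0.37.

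The TGF-beta branch held 4 falls and 0 rises among 14 tested genes, or 28.6% called against 16.3% of all genes, of which 9.22% were called lower. Its median log2 fold change was -0.202, on the side of Tgfbi, with 10 genes below 0 and 4 above. The highest was Tgfb3, at 0.39, which did not pass (limma adjusted p = 0.0727). Inhba, which encodes the subunit of activin A, gave 774, 787 and 789 in the mineralizing cultures and 521, 471 and 502 with AEBSF (log2 fold change -0.66 with SE 0.08, limma adjusted p = 0.000492). Tgif1, a repressor of Smad2 and Smad3 targets, went from 1073 ± 27.2 to 718 ± 43.0 (log2 fold change -0.58 with SE 0.07), and this call held in all 17 alternative settings. Ltbp4, which anchors latent TGF-beta in the matrix, fell by 0.45 and Tsc22d1, a TGF-beta-stimulated gene, by 0.23 on the log2 scale. The Ltbp4 call was lost in 2 of 17 alternative settings, 1 of them without mineralizing culture 1 (limma adjusted p = 0.0638). The Tsc22d1 call was lost in 8 of 17, among them without mineralizing culture 1, 2 or 3 (0.0659, 0.0671 and 0.0756) and without AEBSF culture 1 or 3 (0.0762 and 0.0561). When their probe sets were averaged, Inhba and Tsc22d1 did not pass (log2 fold change -0.49 and -0.11, limma adjusted p = 0.123 and 0.752).

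**Figure D4:**
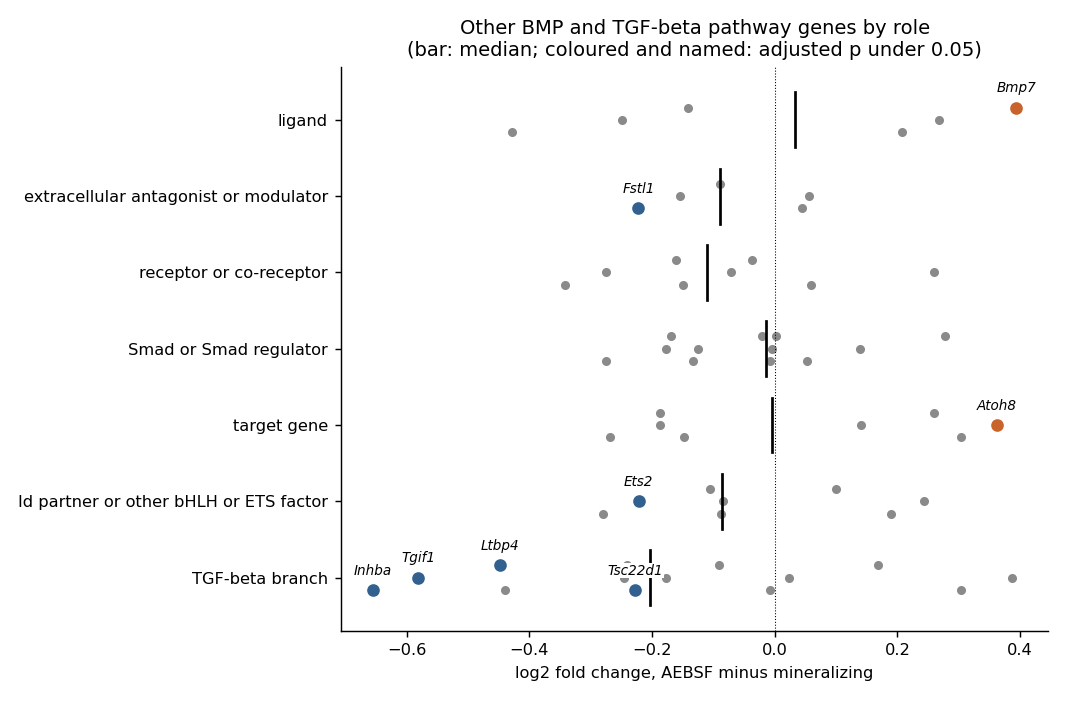
Log2 fold change (horizontal axis, AEBSF minus mineralizing) of the 61 other tested pathway genes by role, each point 1 gene and each bar the median of the role. The 8 coloured and named genes passed an adjusted p of 0.05, with Bmp7 and Atoh8 to the right of 0 and 4 of the 6 falls in the TGF-beta branch.

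For each called member, the genes with the most similar log2 signals over the 6 arrays were found by Pearson correlation, as a description, since the arrays fall into 2 groups. Bmp4 was closest to Pan2 (r = 0.999) and Sdf2l1 (r = 0.997), Nog to Nfu1 and Copg1 (r = 0.996 each). Id1 was closest to Dguok (r = 0.995) and Parp1 (r = 0.992), Id2 to Pms1 (r = 0.995) and Lyar (r = 0.990), and Id3 to Recql4 (r = 0.992) and Amer2 (r = 0.990). Smad7 was closest to Phgdh (r = 0.995) and Gli2 (r = 0.990), and Tgfbi to Cox19 (r = 0.997) and Inpp5k (r = 0.996). Between 57 (Id3) and 261 (Bmp4) other genes had r above 0.95 with a given member, so these names are the top of long lists.

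The cultures carried osteoblast markers in both groups. Of 8 such markers 6 had a probe set and 5 were tested, and their summed signal was 21888 to 23035 in the mineralizing and 22288 to 22902 in the AEBSF cultures. Most of that sum was Ibsp, at means of 16520 in the mineralizing and 17101 in the AEBSF cultures (log2 fold change 0.05). Col1a1, Spp1, Pth1r and Alpl stood at -0.67, -0.17, -0.12 and -0.05 on the log2 scale. Only Col1a1 among the 5 tested passed, lower with AEBSF, and Bglap lay below the filter. Summed signals of the chondrocyte list were 146 to 229 and 119 to 182, those of the macrophage and osteoclast list 308 to 403 and 271 to 335, and those of the adipocyte list 704 to 773 and 707 to 858. Those of the endothelial list were 54.4 to 97.5 and 65.9 to 147, and those of the skeletal muscle list 190 to 194 and 98.3 to 250. Of 28 probe-set-bearing genes on these 5 lists, 22 lay below the filter, 0 of the 6 tested passed in limma (1, Cebpa, had an unadjusted p under 0.05), and each list's ranges overlapped between the groups. The ratio of the 3′ to the 5′ probe set of GAPDH was 1.02 to 1.06 in the mineralizing and 1.05 to 1.08 in the AEBSF cultures, and that of beta-actin 1.52 to 1.54 and 1.46 to 1.61, ranges that overlap.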

How the data were processed

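The authors deposited a MAS5 intensity for each probe set on each array, produced with GCOS according to the submitters' processing notes. Tool versions and the scaling target were not given in the sources used here, nor were detection calls. After trimming the lowest and highest 2%, the mean signal was 500.1 to 500.2 on every array. Controls (57 of 31099 probe sets) were left out. Of the rest, 20826 had 1 platform symbol, 436 several and 9780 were unnamed; symbols were updated by Entrez identifier to GRCr8. Log2 signals with no added constant were fitted with limma 3.58.1 in R 4.3.3 (variance prior following the mean signal), 3 AEBSF minus 3 mineralizing, over 18625 probe sets above the 40th percentile of mean log2 signal (a signal of 67.2), with Benjamini-Hochberg adjustment over all of them. A gene was its brightest probe set. Named were all members, pathway genes that passed, the brightest gene of a role without any, the 2 genes closest to each called member and the osteoblast markers with a probe set. Chosen after their values were seen were Bmp2, Bmp6, Gdf11, Msx1, Hey1, Samd11, Dlx3, Dlx5, Tgfb3, Chrd, Grem1, Fst, the E protein genes and Cebpa. The 17 alternatives changed scaling, added constant (16 or 64), filter, variance prior, replicate block or probe set rule, or left out 1 array. The fit was tested on simulated data. Members and lists were chosen with earlier results of these data known. The number of arrays limits the precision.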

Additional observations from a re-analysis of the deposited data

How the results depend on the processing

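The Bmp4 fall passed in all 17 alternatives. Under hybridization-control scaling 3 members passed, and 2 under a constant variance prior; leaving out 1 array left 4 to 5. The 4 Id genes gave 0 calls in either of those settings and 2 to 3 without 1 array. The 2 inhibitory Smad genes gave 0 in both, 0 when probe sets were averaged and 0 to 1 without 1 array. The other pathway genes gave 15, 3 and 5 calls under hybridization scaling, a constant prior and the replicate block, and 3 to 7 without 1 array. All probe sets gave 885 under a constant prior and 1200 to 2250 without 1 array. Nog did not pass under a constant prior (log2 fold change -0.31) and ranged from -0.35 to -0.24 without 1 array. Tgfbi did not pass without a signal filter (-0.78) and ranged from -0.90 to -0.67 without 1 array. Bmpr1a changed sign to -0.063 under hybridization scaling. Id4 had no value with the filter at the 60th percentile or when probe sets were averaged, and Tgfbi none with that filter. Same-numbered cultures did not deviate together (r = 0.0109, -0.119 and -0.0359 for numbers 1, 2 and 3). With 3 cultures per group this cannot exclude that the numbers pair the cultures. With the replicate number as a block, 5 members and 1802 of 18625 probe sets passed, and Tgfbi (-0.78, limma adjusted p = 0.056) and Id3 (0.0723) did not. Signal over background is unknown for the dim probe sets of Id4, Smad6, Smad7 and Tgfbi. The causes of these shifts were not tested.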
